A study of Mus musculus with 2 samples.

Results

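Flavin containing monooxygenases were described here by the 10 probe sets whose array annotation names exactly 1 gene and whose gene is Fmo1, Fmo2, Fmo4 or Fmo5, by current symbol or alias, out of 45101 probe sets in all. Fmo1 and Fmo4 had 1 probe set each, Fmo5 had 3 and Fmo2 had 5, a probe set being the group of short oligonucleotides on the array that reads 1 transcript. Liver RNA came from male wild-type C57BL/6 mice, 8 weeks old, that had either 30 minutes of warm ischaemia of both kidneys with reperfusion or a sham operation, and the organs were collected 24 hours afterwards. Frozen liver of 3 mice was combined into 1 pool for each treatment, and each pool was read on 1 Affymetrix array. The design set out to find which liver transcripts differ once the kidneys have been injured. Since each treatment has 1 array, nothing measures how mice of a group vary. No test was possible, no p-value is given, and every statement describes these 2 pools.

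Flavin containing monooxygenases are enzymes of the endoplasmic reticulum that carry FAD, take electrons from NADPH and add an oxygen atom from molecular oxygen to nitrogen or sulphur atoms of their substrates. They oxidise amine and thioether drugs, and the liver enzymes turn trimethylamine, which gut bacteria make from choline and carnitine, into its N-oxide. Fmo1 has a broad range of amine and sulphur substrates, and human FMO1 also oxidises hypotaurine to taurine. Fmo5 is a liver enzyme that acts on carbonyl compounds by Baeyer-Villiger oxidation and accepts few of the amines of its relatives. Fmo2 is best known from the lung, and the substrates of Fmo4 are little known. Other genes of the family were not analysed here.

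The promoters of Fmo5 and Fmo4 are shown because Fmo5 was much lower after renal ischaemia-reperfusion and Fmo4 was not. The RefSeq promoter table for build GRCm38.p6 held windows for 3 of the 4 genes, each from 250 bases before to 50 bases after a transcript start. Fmo1 is named only. The sequences are 5′ to 3′ on the strand of the gene, with capitals at the matches of 8 short motifs searched on both strands. The motifs were the TATA box core TATAAA, the CCAAT box, the nuclear receptor half-site AGGTCA, the HNF1 half-site GTTAAT, the STAT element TTCNNNGAA, the E-box CACGTG, the forkhead element TGTTTAC and the aryl hydrocarbon receptor core GCGTG.
Fmo5, chr3:97628769-97629068, plus strand: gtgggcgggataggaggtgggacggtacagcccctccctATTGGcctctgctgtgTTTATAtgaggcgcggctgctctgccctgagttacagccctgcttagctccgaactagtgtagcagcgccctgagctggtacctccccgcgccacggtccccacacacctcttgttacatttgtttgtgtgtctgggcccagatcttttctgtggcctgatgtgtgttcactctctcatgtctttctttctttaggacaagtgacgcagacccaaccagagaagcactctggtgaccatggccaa
Fmo4, chr1:162812500-162812799, minus strand: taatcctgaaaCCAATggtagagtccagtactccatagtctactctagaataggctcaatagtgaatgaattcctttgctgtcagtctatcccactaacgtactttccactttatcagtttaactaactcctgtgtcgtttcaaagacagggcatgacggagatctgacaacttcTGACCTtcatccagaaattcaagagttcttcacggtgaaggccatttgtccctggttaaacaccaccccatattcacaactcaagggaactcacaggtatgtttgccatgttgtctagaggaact
The Fmo5 window held CCAAT and TATAAA, both on the strand opposite to the gene, from positions -211 and -195 relative to the start. The Fmo4 window held CCAAT on its own strand from position -239 and AGGTCA on the opposite strand from position -75. CCAAT was present in 37.4% of 32851 promoter windows of the same length, TATAAA in 13.6% and AGGTCA in 16.3%. None of the other 5 motifs was found in either window, which says only that these letters are not there. The GC content was 56.0% for Fmo5 and 42.7% for Fmo4, against a median of 52.7% over all windows.

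Fmo1 and Fmo5 were lower in the renal ischaemia-reperfusion pool, Fmo4 differed little, and the probe sets of Fmo2 disagreed. Of the 4 genes, 2 were lower by 2-fold or more, none was higher by 2-fold or more, and 2 were neither. Over all 13117 genes tested, 9.59% passed 2-fold on the lower side and 8.71% on the higher side. The median log2 difference was -1.01 over the 4 genes and -0.01 over all genes. Differences are the log2 of signal plus 16 in the renal ischaemia-reperfusion pool minus the same in the sham pool, and all folds are on that scale. Here and for every gene below, fewer cells of a type and less RNA per cell cannot be told apart in whole liver.

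Fmo1, read by probe set 1417429_at, read 4166 in sham liver and 1122 after renal ischaemia-reperfusion. The second signal was 26.9% of the first. On the log2 scale Fmo1 was lower by a difference of -1.88, or 3.67-fold. Both signals lay above the median of their array, which was 257.0 for the sham array and 254.1 for the other with control probe sets left out. Only 2.88% of all genes had a difference as low or lower. Fmo1 rests on a single probe set, so no second reading of it is available.

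Fmo5 was lower by each of its 3 probe sets. The brightest, 1450332_s_at, had signals of 16428 and 4038, sham pool first, a log2 difference of -2.02 and a 4.06-fold lower value. Probe set 1421709_a_at had signals of 9677 and 2772, with a log2 difference of -1.80, or 3.48-fold lower. Probe set 1440899_at had signals of 2615 and 386.5, with a log2 difference of -2.71, or 6.54-fold lower. All 6 of these signals lay above the array medians, and the 3 differences spanned 0.91 on the log2 scale. The annotation gives 1450332_s_at and 1421709_a_at the same target transcript. The suffix _s_at, like _x_at, marks a probe set that may also bind related transcripts, called ambiguous below, whereas 1440899_at, with the lowest difference, has no such suffix. Among the 1188 genes with exactly 3 probe sets past the filter, 2.1% were at least 2-fold lower by all of them. By its brightest probe set Fmo5 was among the lowest 2.42% of all genes.

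Fmo4, read by probe set 1425799_at, read 526.4 in sham liver and 478.8 after renal ischaemia-reperfusion. Its log2 difference was -0.13, or 1.10-fold lower, and 42.1% of all genes had a difference as low or lower. Its signals were 2.05 times the array median in sham liver and 1.88 times after injury of the kidneys. The difference is smaller than the disagreement between probe sets of 1 gene, which had an SD of 0.72 in log2 difference over all genes.

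Fmo2 was read by probe sets that did not share a direction. The probe set with the highest mean, 1422904_at, read 382.1 in sham liver and 409.4 after renal ischaemia-reperfusion, a log2 difference of 0.10. Probe set 1422905_s_at, which the annotation gives the same target transcript, had signals of 471.7 and 78.9. The second of these lies under the array median, so the fold is given as a bound, at least 1.81-fold lower. Probe set 1453435_a_at had signals of 376.1 and 255.7, with a log2 difference of -0.53. The annotation's shared target thus gave a reading that was little different and a reading that was lower. The remaining probe sets were under the median on both arrays and give no fold. Of these, 1435459_at had signals of 226.8 and 41.5, sham pool first, and 1454005_at had 156.5 and 240.1. Fmo2 thus stayed near or under the array medians by every probe set, and no probe set past the filter shows it clearly higher.

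Counted by probe set, 8 of the 10 passed the filter on low signals. The filter asked the brighter signal of a probe set to reach the median of its array, so a dim transcript could enter through the pool where it was brighter. By measured signals, 5 of the 8 were lower by 2-fold or more, none was higher by as much and 3 were neither, against 10.8% lower and 10.4% higher among all 21003 probe sets with 1 gene that passed. One of the 5 is the Fmo2 probe set 1422905_s_at, which passed through sham liver only and whose bound is under 2-fold, so 4 remain when dim signals are raised to the median. These counts are not independent readings, since 3 of the 4 belong to Fmo5.

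**Figure D1:**
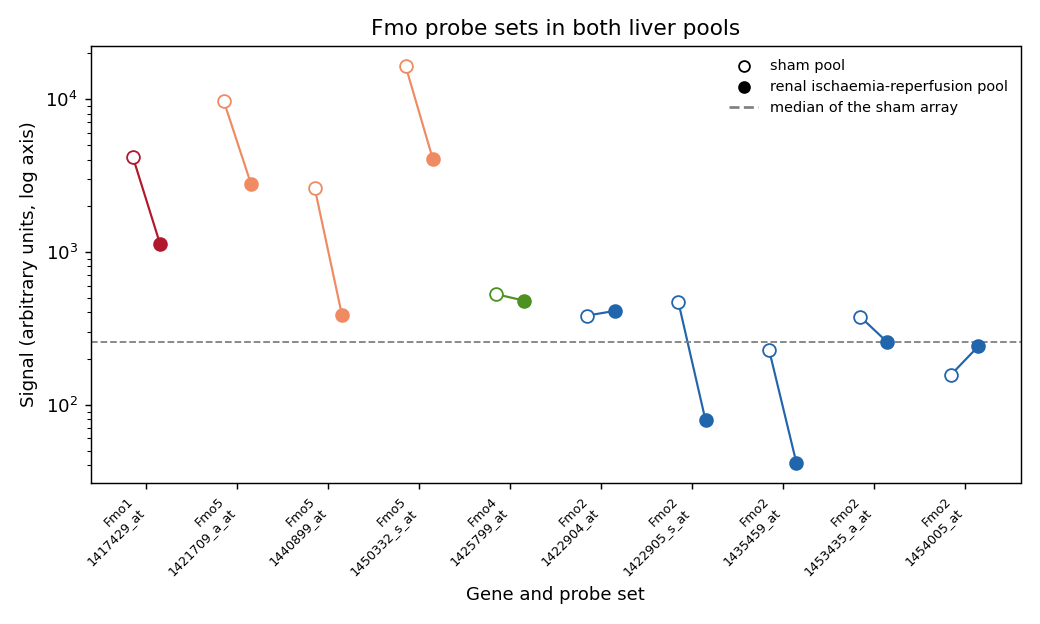
Signal of each Fmo probe set on a log axis, with open circles for the sham pool, filled circles for the renal ischaemia-reperfusion pool and a dashed line at the sham array's median of 257.0. The lines of Fmo1 and of all 3 probe sets of Fmo5 drop, that of Fmo4 is nearly level, and those of Fmo2 go in different directions near or under the median.

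Set against all genes, each by its probe set with the highest mean, Fmo1 and Fmo5 stood in the lower tail and Fmo4 and Fmo2 near the centre. The place of Fmo2 is not settled, since its probe sets disagreed and their average, with a dim signal included, was -0.93. The middle 50% of genes lay between -0.45 and 0.42. Fmo5 had the lowest of the 4 differences by its brightest probe set, followed by Fmo1, Fmo4 and Fmo2. Fmo5 and Fmo1 are neighbours in that order that differ by less than the SD between probe sets of 1 gene, as are Fmo4 and Fmo2.

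**Figure D2:**
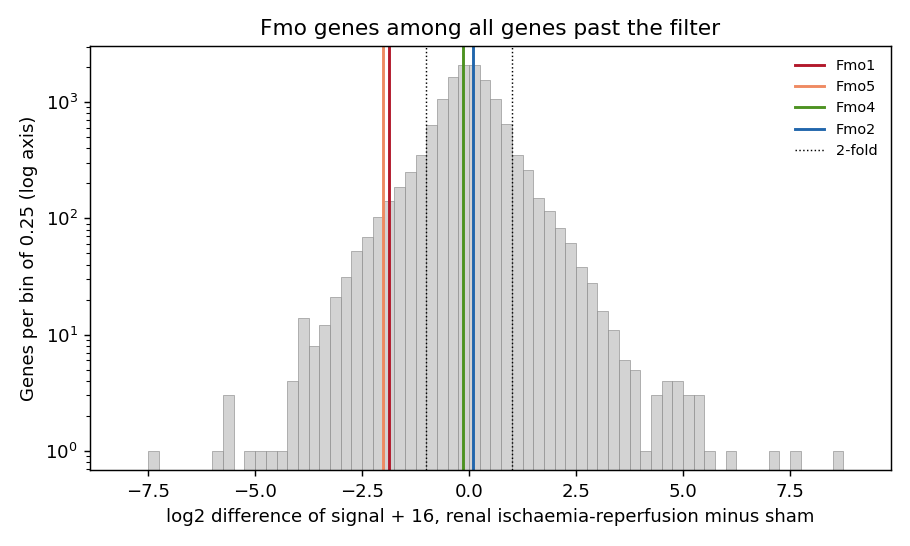
Histogram of the log2 difference of 13117 genes, renal ischaemia-reperfusion minus sham, with the number of genes per bin on a log axis, coloured lines at the 4 Fmo genes and dotted lines at 2-fold. Fmo5 at -2.02 and Fmo1 at -1.88 lie beyond the lower 2-fold line, and Fmo4 at -0.13 and Fmo2 at 0.10 lie near 0. Each line is at the gene's probe set with the highest mean, and the other Fmo2 probe sets past the filter were lower.

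The genes closest to each member over the 2 arrays were found by the straight-line distance between log2 signals. For Fmo1 they were Slc40a1, with signals of 4204 and 1144, and Dnase2a, with 4057 and 1176 by an ambiguous probe set. For Fmo5 they were Mtarc1, with signals of 16510 and 4557, and Hadh, with 14404 and 4051 by an ambiguous probe set. Fmo2 lay closest to Serpinb9g and Car15, and Fmo4 to Prima1 and G730013B05Rik. A likeness over 2 arrays is a description only.

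The differences of Fmo1 and Fmo5 kept their direction and stayed beyond 2-fold in all 13 alternative processings. Fmo1 ranged from -2.16 to -1.83 and Fmo5 from -2.71 to -1.80. Fmo4 stayed between -0.42 and -0.11 in the 12 in which it was measured. Many of these alternatives could not change a value. Fmo1 and Fmo4 each have 1 probe set with both signals above the medians. Choices of filter, of probe set or for dim signals therefore return the same difference for them. The filters and the raising of dim signals could not change the brightest probe set of Fmo5 either. Fmo2 ranged from -0.93, with its probe sets averaged, the dim signal of 1422905_s_at included, to 0.12, and its sign therefore depends on the processing. It was also below 0, at -0.19, with the bacterial hybridisation controls as the reference, all 18 of which were brighter on the renal ischaemia-reperfusion array.

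**Figure D3:**
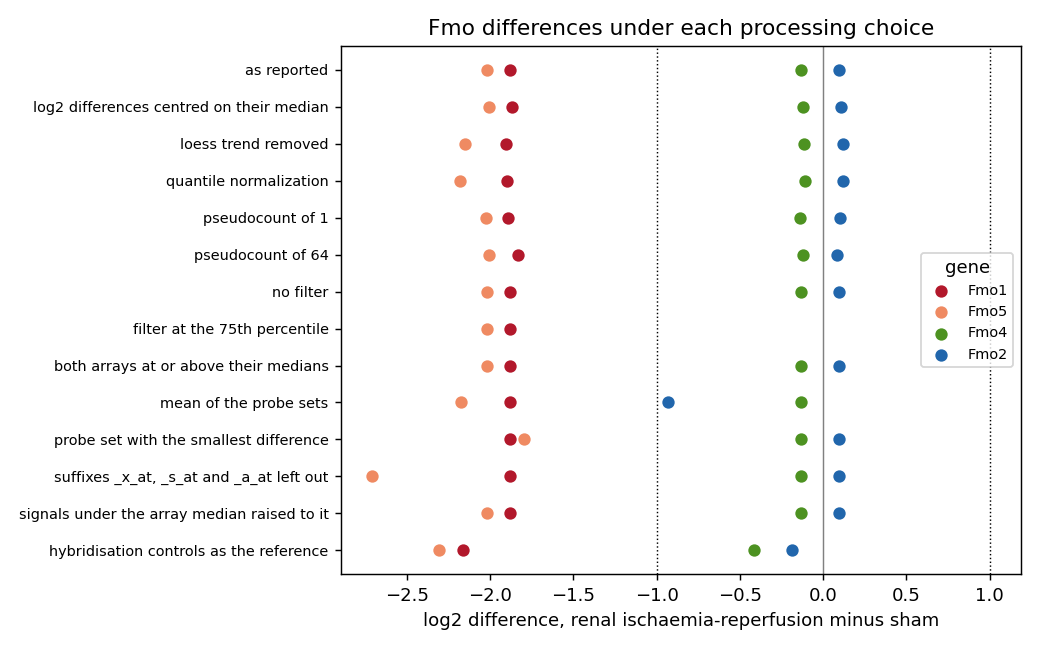
Log2 difference of each Fmo gene, renal ischaemia-reperfusion minus sham, as reported and under 13 alternative processings, with dotted lines at 2-fold. Fmo1 and Fmo5 lie beyond the lower 2-fold line in every row, whereas Fmo2 lies on either side of 0 and neither Fmo2 nor Fmo4 passed a filter at the 75th percentile.

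Several other enzymes that oxidise or reduce amines, drugs or sulphur compounds were lower. Of the sulphur enzymes on their list, Suox was 3.05-fold lower and Sqor stood at -0.66. Counts for gene lists use the measured signals of genes past the filter, and a named gene under the median on 1 array has a bound in place of its fold. Beside each count stand the shares over all genes, 9.59% past 2-fold on the lower side and 8.71% on the higher side. Of the 13 measured genes among 15 on that list, 7 passed 2-fold on the lower side and none on the higher side, with a median log2 difference of -1.61 beside -2.02 for Fmo5 and -1.88 for Fmo1. The lowest were the aldehyde oxidase Aox3, which went from 12891 to 1217 (10.5-fold lower), and the quinone reductase Nqo2, from 2360 to 460.2 (4.99-fold lower). The aldehyde oxidase Aox1 was 4.46-fold lower. Monoamine oxidases take amines by another chemistry. Of these, Maob went from 6949 to 1413, 4.87-fold lower, whereas Maoa had signals of 1042 and 971.2 and a log2 difference of -0.10, with probe sets of both signs. Xdh, xanthine dehydrogenase, at 0.74, and Dao, D-amino acid oxidase, at 0.33, were the highest of the list.

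Genes of choline, trimethylamine and carnitine handling, the nutrients from which the Fmo substrate trimethylamine is made, had 9 of 18 measured members, out of 20 listed, past 2-fold on the lower side and 1 on the higher side, with a median of -1.01. Chdh, choline dehydrogenase, went from 2218 to 102.7, at least 8.27-fold lower, by an ambiguous probe set. Shmt1, a serine hydroxymethyltransferase, went from 2306 to 143.9, at least 8.60-fold lower. Choline kinase alpha (Chka) went the other way, from 352.4 to 2453, 6.70-fold higher by its brightest probe set, although its 3 probe sets ranged from 0.09 to 2.74. The carnitine transporter Slc22a5 stood at 0.94.

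Genes that supply NADPH, the reductant of Fmo enzymes, or transfer electrons in membranes had 5 of 11 measured members, out of 13 listed, past 2-fold on the lower side and 1 on the higher side, with a median of -0.74. Among these 5, Me1 stood at -1.36 by its brightest probe set but at 0.11 by its other, and Nnt was only 2.02-fold lower. Nadk2, the mitochondrial NAD kinase, went from 3337 to 867.9 (3.79-fold lower), and Cyb5b, a cytochrome b5 of the outer mitochondrial membrane, from 5587 to 1769 (3.14-fold lower). Pgd, phosphogluconate dehydrogenase, was the highest at 1.16 by an ambiguous probe set, and H6pd, which makes NADPH inside the endoplasmic reticulum, stood at 0.42. Por, the P450 reductase, was not analysed here.

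For FAD, the cofactor of the family, 2 of 6 measured genes, out of 8 listed, of riboflavin uptake, FAD synthesis and flavin hydrolysis passed 2-fold on the lower side and none on the higher side, with a median of -0.19. Rfk, riboflavin kinase, was the highest at 0.76, and Slc25a32 stood at -0.01 by its brightest probe set and at -2.68 by another. The lowest were the phosphatase Acp5 at -1.15 and Enpp3 at -1.04, whose probe sets differed in sign. Genes of cysteine oxidation and taurine, the pathway to which human FMO1 contributes its hypotaurine step, had 2 of 8 measured members, out of 10 listed, past 2-fold on the lower side and none on the higher side, with a median of -0.12. These 2 were Csad, which makes hypotaurine, from 8593 to 1656 (5.15-fold lower), and Cth, cystathionine gamma-lyase, from 10738 to 3038 (3.52-fold lower). Baat, which joins taurine to bile acids, was the highest at 0.26 by an ambiguous probe set, and Ado, cysteamine dioxygenase, stood at 0.16 with probe sets of both signs.

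A list of nuclear receptors, liver transcription factors and growth hormone signalling genes was set beside the Fmo genes, since Fmo transcription in liver depends on hormones and liver factors. Of its 19 measured members, out of 22 listed, 8 passed 2-fold on the lower side and none on the higher side, with a median of -0.69. The xenobiotic receptor Nr1i3 went from 2263 to 732.9 (3.04-fold lower). Stat5a had signals of 505.5 and 99.1, at least 1.93-fold lower, and without it 7 members passed 2-fold. Among these 7, Nfe2l2 stood at -1.01 by its brightest probe set but at 5.45 by its other. Ahr stood at -1.04 by its brightest probe set and -0.03 by its other, and Stat5b at -1.02 and -0.48. Foxa1, at -1.06 by its only probe set, was also close to the 2-fold threshold. Cebpb at 0.51 and Arnt at 0.17 were the highest, and the probe sets of Arnt differed in sign. Because several Fmo genes differ between the sexes in mouse liver, genes biased to either sex were counted too. Of 15 measured male-biased genes among 19 listed, 8 passed 2-fold on the lower side and none on the higher side (median -1.005), from Hsd3b5, at least 21.2-fold lower, and Keg1 at -3.72 to Egfr at 0.16 and Mup3 at 0.28. Of 8 measured female-biased genes among 20 listed, 3 passed 2-fold on the lower side and none on the higher side (median -0.59), but 1 with dim signals raised to the median (median -0.22). Cyp4a14 stood at -2.03 and Acot3 at 0.42, by an ambiguous probe set, while Abcd2, at least 1.07-fold lower, and Cyp2b13, at least 1.04-fold higher, have no place in that order. The probe sets of Egfr and of Mup3 differed in sign.

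**Figure D4:**
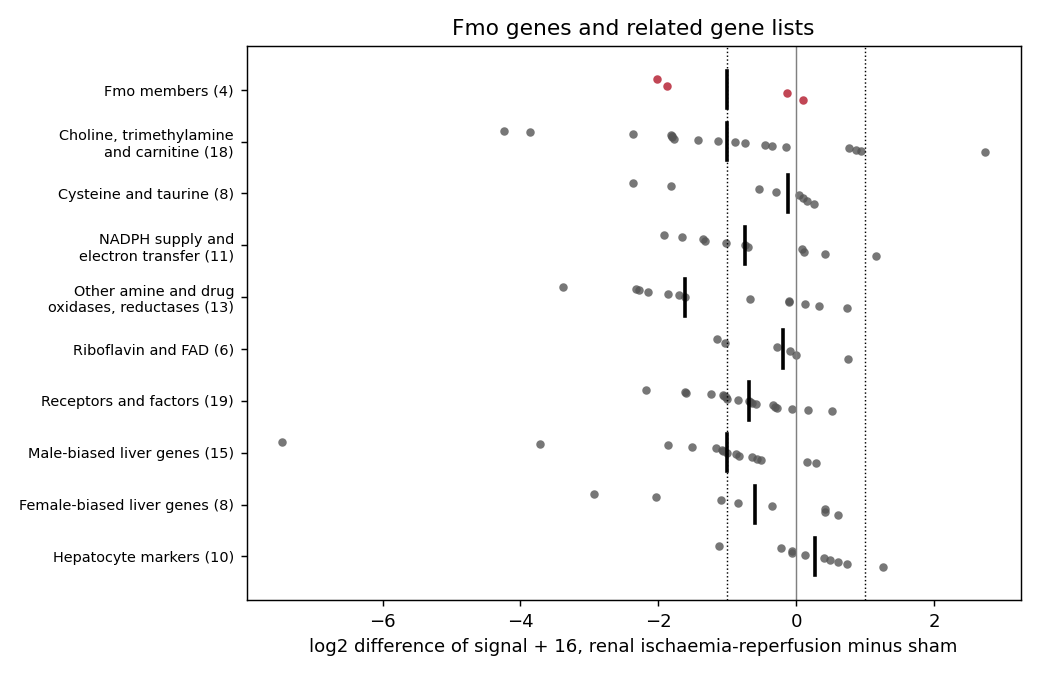
Log2 difference of each measured gene, renal ischaemia-reperfusion minus sham, for the 4 Fmo genes (red) and 9 gene lists (grey), with the number of genes in brackets, a black bar at each median and dotted lines at 2-fold. The median of other amine and drug oxidases and reductases, a row that also holds Suox and Sqor, is -1.61, and that of hepatocyte markers is 0.27.

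The tissue was checked by its markers. Of the 12 hepatocyte markers 10 were measured, and their summed signal was 302827 in sham liver and 409251 after renal ischaemia-reperfusion, with a median log2 difference of 0.27. Fgb at 1.27 and Alb at 0.73 were the highest and Cps1 at -1.12 and Apob at -0.22 the lowest, the probe sets of Apob differing in sign. The hepatocyte list was mixed, with a median above 0 and 4 of its 10 measured genes below 0. Its part in the values of Fmo1 and Fmo5 was not tested.

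Markers of other cell types were counted in the same way. The shares over all genes were 9.59% lower and 8.71% higher by 2-fold or more. A list with 1 gene past 2-fold on a side is too short to set against these shares. All 10 measured pancreatic acinar markers were above 0, 7 of them at least 2-fold higher, and their summed signal went from 5678 in the sham pool to 14619. Of the 10, 4 were under the sham median and passed only through the renal ischaemia-reperfusion pool, so the filter set their direction. With dim signals raised to the median, 7 were at least 2-fold higher. These include Cpb1, Ctrb1 and Cpa1, which passed only through the renal ischaemia-reperfusion pool, so raising dim signals could not make them lower. The others, Cel, Cela3b, Cela2a and, by an ambiguous probe set, Prss2, were above the median on both arrays. Of 4 measured biliary markers 3 were at least 2-fold higher by measured signals (summed signal 1045 and 2862) and 2 with dim signals raised to the median. Krt19 and Epcam passed only through the renal ischaemia-reperfusion pool, and Krt7 (81.3 and 32.0) and Cftr (108.6 and 15.2) were under the median on both arrays. Further, of 3 measured adipocyte markers 2 were at least 2-fold higher (summed signal 1944 and 8308), while the adipocyte markers Adipoq and Lep were under the median on both arrays. Of the 2, Fabp4 (240.2 and 5684) was read by a probe set that passed only through the renal ischaemia-reperfusion pool. Its 4 probe sets, from -0.06 to 4.48, differed in sign. All 10 Kupffer cell markers were measured, with 2 past 2-fold on the lower side and none on the higher side (summed signal 12912 and 8774). Neutrophil markers went from a summed signal of 4159 to 5461, with 2 of 7 past 2-fold on the higher side and 1, dim after injury, on the lower side. The 2 higher ones, S100a8 and S100a9, passed only through the renal ischaemia-reperfusion pool. With dim signals raised to the median, 2 were higher and 0 lower. That step could not make S100a8 or S100a9 lower, and it could only shrink the difference of the 1 lower gene. By measured signals 3 of the 7 neutrophil markers were below 0 (median 0.07). Endothelial markers went from 7619 to 8340 with 1 of 8 on each side of 2-fold, but 5 of the 8 were below 0 (median -0.12). The higher one, Lyve1, went from 326.8 to 2740.5. Stellate cell markers went from 11926 to 14556 with 1 of 9 on each side, the lower of them dim after injury. Of these 9, 6 were below 0 (median -0.42), and the higher one, Dcn, went from 3967.7 to 8037.4. Kidney tubule markers went from 4243 to 4272 with 0 of 7 past 2-fold. The part of these cell types in the values of the Fmo genes was not tested.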

How the data were processed

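Microarray intensity values on a linear scale, 1 per probe set and pool, were deposited by the authors. Per the labels' protocols, biotinylated cRNA was made from 6 ug of Trizol-extracted total RNA of each pool. The name of the software that summarised probe sets was not given in the sources used here. Trimmed by 2% at each end, the mean was 500.0 on both arrays. The number of arrays limits the precision.

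Genes came from the platform annotation, with symbols updated through RefSeq, and 34945 of 45037 probe sets that are not controls had 1 gene. Values were log2 of signal plus a pseudocount of 16. Each gene was represented by its passing probe set with the highest mean. A signal under the array median makes a fold a bound against that median. The text names all members and their probe sets, up to 2 highest and 2 lowest genes of each pathway list, a fixed set of oxidases with Por, and the 2 genes nearest to each member. Of marker lists other than hepatocytes it gives counts. A few more genes are named where they limit a count or a summed signal. The members and lists were chosen with earlier results of these data known, and the promoter motifs, the reference to hybridisation controls, the neighbouring genes and the counts of lists and probe sets with dim signals raised to the median were chosen after the data were seen. The steps were tested on simulated arrays. The analysis used Python 3.11.15, pandas 2.3.3 and statsmodels 0.14.6.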

Additional observations from a re-analysis of the deposited data

How the results depend on the processing

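A value was counted as changed when it crossed 2-fold or moved by more than 1.5 times. Fmo1 and Fmo4 did neither under any alternative that gave a value. For these genes only the alternatives that rescale the arrays or alter the pseudocount could give another value. Fmo2 moved from 0.10 to -0.93 with the mean of its probe sets, and Fmo5 from -2.02 to -2.71 without probe sets of suffix _x_at, _s_at or _a_at, which leaves 1440899_at as its only probe set. Fmo2 and Fmo4 did not pass a filter at the 75th percentile. The counts of genes at least 2-fold higher and lower, 1143 and 1258, were 682 and 797 with that filter and 563 and 676 with both arrays required to be at or above their medians (10950 genes, without those dim in 1 pool). They were 733 and 869 with dim signals raised to the median, and 756 and 2016 with the hybridisation controls as the reference, which shifts all differences by a constant, so that higher genes made up 27.3% of those past 2-fold instead of 47.6%. They were 2449 and 2536 at a threshold of 1.5-fold and 472 and 589 at 3-fold. No paired analysis was possible because each group has 1 pool. Dim signals limit Fmo2 and Fmo4 most.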

Other observations

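In the RefSeq gene order of GRCm38.p6, Fmo4, Fmo1 and Fmo2 follow each other on chromosome 1. Of these, Fmo1 lay between 2 genes whose representative probe sets differed little, Fmo4 at -0.13 and Fmo2 at 0.10. Prrc2c, the coding gene next to Fmo4 on the outer side, read 389.5 in sham liver and 562.0 after renal ischaemia-reperfusion, a log2 difference of 0.51. Fmo5 lies apart from the others on chromosome 3. Its neighbours were Chd1l, with signals of 785.9 and 800.3 and a log2 difference of 0.03, and Prkab2, with 748.1 and 579.7 and a log2 difference of -0.36 but probe sets of both signs. Further from Fmo5, Sec22b went from 1334 to 4277, a log2 difference of 1.67, and Acp6 from 513.9 to 34.2, a signal under the array median.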
